A study of Homo sapiens with 34 samples.

Results

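The genes for proteins of the mitochondrial ribosome were described in RNA-seq levels from 3 human B-ALL cell lines. The members were all genes whose symbol begins with MRPL or MRPS followed by a digit. They were 78 of 17587 genes listed in at least 1 of the 6 comparisons of the study, 49 with an MRPL and 29 with an MRPS symbol. All 78 were protein-coding and were listed in all 6 comparisons, as were 13307 genes in total. The lines are B-ALL lines (B-cell precursor acute lymphoblastic leukemia) with different fusion genes, ETV6-PDGFRB in NALM-6, MLL-AF4 in RS4;11 and BCR-ABL in BV-173. In each line, RFP-marked cells sorted 4 days after lentiviral transduction with a *CCND3* shRNA were set against cells that carried a scrambled shRNA. In parallel, cells treated for 3 days with 1 µM palbociclib, an inhibitor of the cyclin D-dependent kinases CDK4 and CDK6, were set against cells that received only the solvent, DMSO. The 12 groups held 34 samples, 3 in each group, with 2 in the *CCND3* shRNA group of NALM-6 and 2 in the DMSO group of BV-173. The labels do not say whether samples of a group came from separate cultures. A single *CCND3* shRNA was sequenced, so effects of the loss of *CCND3* and other effects of that shRNA cannot be told apart.

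The mitochondrial ribosome translates the few mRNAs of the mitochondrial genome, which encode core subunits of the respiratory chain and ATP synthase. Its RNAs come from mitochondrial DNA, while all of its proteins are encoded in the nucleus, made in the cytosol and imported. The large subunit (MRPL symbols) joins amino acids and holds the exit tunnel, and the small subunit (MRPS symbols) reads the mRNA. Many of these proteins have counterparts in bacterial ribosomes, and others are found only in mitochondria. A few symbols do not match the place of the protein. *MRPS30* and *MRPS18A* products sit in the large subunit, and the *MRPS36* product is a component of the 2-oxoglutarate dehydrogenase complex.

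Promoter sequences were taken from RefSeq (GRCh38.p14) for 5 members on which the results below turn, to show what precedes their starts. Of the 78 members, 70 had an entry, with 86 windows between them. Each sequence runs from 250 bases before to 30 bases after a start of transcription, 5′ to 3′ on the gene's strand. Capitals mark 3 motifs read on both strands, with hits allowed to overlap, the ETS motif CCGGAAG, the YY1 motif AAGATGGC and the NRF1 motif GCGCATGC. *MRPL16* (minus strand, chr11:59810749-59811028) was the lowest member after *CCND3* knockdown. By the mean over the 3 lines, *MRPS12* (plus strand, chr19:38930694-38930973) was the highest member after both treatments and *MRPS21* (plus strand, chr1:150293611-150293890) the next highest. *MRPS18B* (plus strand, chr6:30617590-30617869) was the lowest member with palbociclib in NALM-6, and *MRPL39* (minus strand, chr21:25607452-25607731) the lowest with palbociclib over the 3 lines.
MRPL16: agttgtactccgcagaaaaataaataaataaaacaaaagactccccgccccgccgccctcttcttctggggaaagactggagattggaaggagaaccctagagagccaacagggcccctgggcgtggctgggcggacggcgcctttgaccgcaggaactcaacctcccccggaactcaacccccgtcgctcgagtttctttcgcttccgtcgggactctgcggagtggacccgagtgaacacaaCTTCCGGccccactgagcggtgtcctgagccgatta
MRPS12: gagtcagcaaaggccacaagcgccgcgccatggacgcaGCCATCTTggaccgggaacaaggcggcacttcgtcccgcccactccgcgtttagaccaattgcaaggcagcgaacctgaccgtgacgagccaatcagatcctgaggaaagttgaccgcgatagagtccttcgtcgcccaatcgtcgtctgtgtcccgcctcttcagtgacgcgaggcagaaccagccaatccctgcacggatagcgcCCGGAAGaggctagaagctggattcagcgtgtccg
MRPS21: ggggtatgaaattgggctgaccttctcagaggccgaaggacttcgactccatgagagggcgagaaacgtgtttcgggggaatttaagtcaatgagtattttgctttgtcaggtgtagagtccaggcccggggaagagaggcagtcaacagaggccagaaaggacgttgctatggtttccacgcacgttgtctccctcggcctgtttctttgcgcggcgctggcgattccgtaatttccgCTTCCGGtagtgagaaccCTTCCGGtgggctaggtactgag
MRPS18B: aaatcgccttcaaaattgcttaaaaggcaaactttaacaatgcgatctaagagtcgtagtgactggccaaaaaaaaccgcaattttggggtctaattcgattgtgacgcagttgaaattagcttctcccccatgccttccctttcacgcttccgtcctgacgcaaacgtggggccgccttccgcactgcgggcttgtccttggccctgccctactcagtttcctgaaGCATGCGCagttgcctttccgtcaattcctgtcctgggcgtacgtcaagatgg
MRPL39: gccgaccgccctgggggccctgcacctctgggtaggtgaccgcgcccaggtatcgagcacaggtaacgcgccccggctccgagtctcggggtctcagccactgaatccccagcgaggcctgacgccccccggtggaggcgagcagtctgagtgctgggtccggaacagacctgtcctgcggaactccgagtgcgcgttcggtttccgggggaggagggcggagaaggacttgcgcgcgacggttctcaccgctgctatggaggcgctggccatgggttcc
The window of *MRPL16* held 1 ETS motif beginning at -6. Positions are counted without a 0, with the first transcribed base as 1. *MRPS12* held an ETS motif at -5 and a YY1 motif at -212. Counted from another start of *MRPS12*, whose window is not printed, the same motifs lay at -15 and -222. *MRPS21* held 2 ETS motifs, at -11 and 8. *MRPS18B* held an NRF1 motif at -23 and a YY1 motif at 24, whose end lies beyond the printed stretch, so that it is not in capitals. *MRPL39* held none of the 3.

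Short motifs were then counted in windows from 250 bases before to 50 bases after the start. The ETS motif was found in 38.4% of the 86 member windows and in 10.3% of the 35116 windows of all genes. The YY1 motif was found in 26.7% of member windows against 2.89% of all windows, and the NRF1 motif in 6.98% against 3.05%. The E-box CACGTG, the site of MYC and MAX, was found in 11.6% against 7.26%. Motifs of cell cycle promoters were held by 6 or fewer members each. The E2F motif TTTCCCGC was found in 1.16% of member windows against 1.63% of all, its other form TTTGGCGC in 2.33% against 0.652%, and the CHR motif TTTGAA in 6.98% against 15.2%. All members are listed genes, and in the 20102 windows of listed genes the shares were 13.7% for ETS, 3.79% for YY1, 3.91% for NRF1, 8.57% for the E-box, 2.05% and 0.861% for the forms of E2F and 11.7% for CHR. Only *MRPS18B* of the 5 printed genes had the NRF1 motif, which 6 members held. With palbociclib these 6 had a median log2 ratio over the lines of -0.37, against -0.05 for the 64 members with a window but without it. The 30 members with an ETS motif lay at -0.09 and the 40 without at -0.04. After *CCND3* knockdown the medians with and without were -0.03 and 0.03 for NRF1, and 0.02 and 0.03 for ETS. For YY1 they were 0.10 (21 members) and 0.00 (49), and for the E-box 0.10 (10) and 0.02 (60). With palbociclib they were -0.08 and -0.05 for YY1, and -0.05 and -0.05 for the E-box. A matching stretch of letters is not a binding site, and these medians carry no test.

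The tables used here give 1 level per group and comparison, made by the authors from RSEM estimates and scaled within each pair of groups. Spread between samples and depth per sample are unknown. No SD over samples, interval or p-value is therefore given, and it was not tested whether any difference exceeds the replicate error. Changes are log2 ratios of the treated over the control level, and "past 1.5-fold" means a ratio of at least 1.5 in either direction. The SD that follows some means is over the 3 lines. A run of 3 values gives NALM-6 first, RS4;11 second and BV-173 last. Between 14763 and 15944 genes were listed per comparison. *CCND3*, which encodes cyclin D3, stood at 24.2%, 20.7% and 31.1% of the scrambled level after knockdown, and at 78.0%, 81.8% and 76.0% of the DMSO level with palbociclib. All 8 B-lineage markers were listed, with a summed level of 53389 to 83043 per group. The markers of other blood cells, 9 of 10 of them listed somewhere, summed to 197 to 2331. All 10 genes of cycling cells were lower than the control in each comparison, with a median log2 ratio of -1.30, -1.77 and -0.49 after knockdown and of -2.94, -4.26 and -1.73 with palbociclib. The part of these cell cycle genes in the values below was not tested.

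After *CCND3* knockdown, mitochondrial ribosomal protein genes stayed near their control level in NALM-6 and RS4;11 and lay somewhat above it in BV-173. The median log2 ratio of the 78 members was -0.05, -0.05 and 0.21, beside medians of all listed genes of 0.01, 0.01 and -0.01. In NALM-6, 31 members were above the control, or 39.7%, where 51.2% of all genes were. In RS4;11, 37 members were above, where 50.9% of all genes were. In BV-173, 65 of 78 members were above, or 83.3%, where 48.9% of all genes were. Most of the BV-173 differences were small, and the quartiles of the members lay at 0.12 and 0.29.

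Few members passed 1.5-fold after knockdown. In NALM-6, 3 members were past 1.5-fold lower (*MRPL16*, *MRPL48* and *MRPL58*), which is 3.85% of members beside 8.47% of all genes, and none was past 1.5-fold higher beside 7.82%. In RS4;11, *MRPL11* and *MRPL16* were past 1.5-fold lower (2.56% of members, 9.72% of all genes) and none was higher (9.73% of all genes). In BV-173, *MRPS12* was past 1.5-fold higher (3.32% of all genes) and none was lower (4.78% of all genes).

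**Figure D1:**
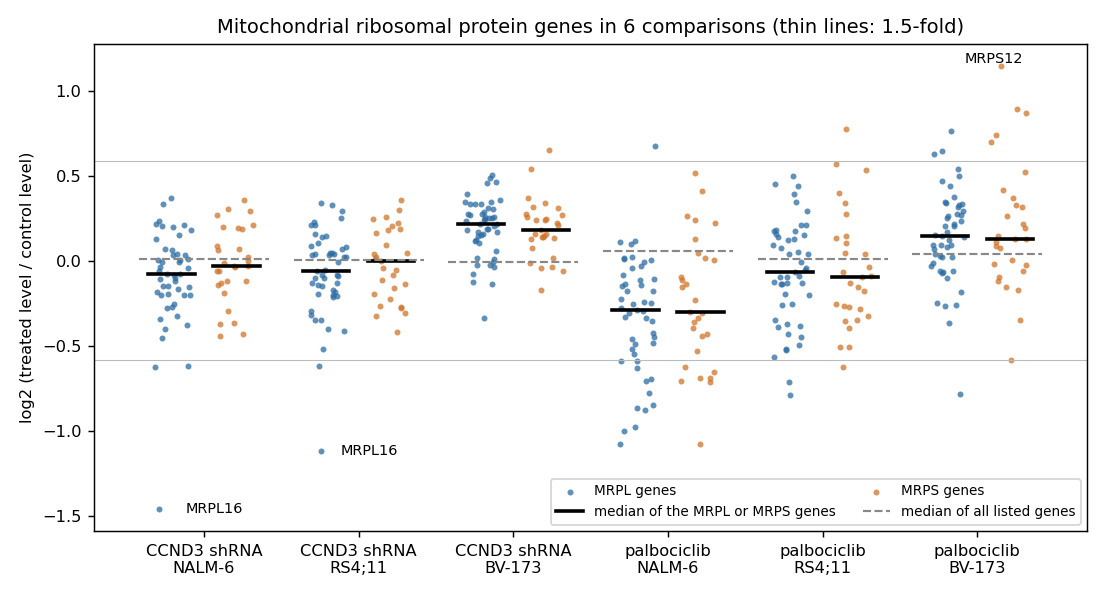
Log2 ratio of treated over control level (vertical axis) for each MRPL gene (blue) and MRPS gene (orange) in the 6 comparisons, 1 point per gene, with horizontal jitter. Black bars are medians of the MRPL or MRPS genes, grey dashes the median of all listed genes and thin lines a ratio of 1.5-fold. The points lie lowest with palbociclib in NALM-6 (median -0.29) and highest after knockdown in BV-173 (median 0.21), and *MRPL16* lies alone at -1.46 and -1.12.

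Palbociclib separated the lines more widely. The median log2 ratio of members was -0.29, -0.09 and 0.14, beside 0.06, 0.01 and 0.04 for all genes. In NALM-6, 17 of 78 members were above the DMSO level, where 53.5% of all genes were. In RS4;11, 32 were above, where 51.7% of all genes were, and in BV-173, 56 were above, where 52.9% were. The ratio of BV-173 exceeded that of NALM-6 in 75 of 78 members with palbociclib and in 69 after knockdown. It exceeded that of RS4;11 in 67 and 68 members. The share of all genes with this order of lines was not counted, so these counts cannot be called particular to the members. Nuclear-encoded respiratory chain and ATP synthase genes also had their highest medians in BV-173, at 0.28 after knockdown and 0.37 with palbociclib.

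With palbociclib in NALM-6, 19 members were past 1.5-fold lower, 12 MRPL and 7 MRPS genes. This is 24.4% of members beside 14.9% of all genes. Only *MRPL1* was past 1.5-fold higher, beside 21.4% of all genes. In RS4;11, *MRPL11*, *MRPL39* and *MRPS28* were past 1.5-fold lower (3.85% of members, 15% of all genes) and *MRPS21* was past 1.5-fold higher (16.7% of all genes). In BV-173 the balance was the other way. There *MRPL4*, *MRPL33*, *MRPL41*, *MRPS12*, *MRPS17*, *MRPS21*, *MRPS25* and *MRPS33* were past 1.5-fold higher, 10.3% of members beside 13.6% of all genes, and *MRPL39* was past 1.5-fold lower, beside 11.9%. The members were less spread than all genes of some abundance, members included. Their interquartile range was 0.17 to 0.30 after knockdown and 0.35 to 0.49 with palbociclib, while genes with a mean level of at least 100 spanned 0.42 to 0.52 and 0.66 to 0.74.

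The medians of the large and the small subunit lay close to each other. Medians of MRPL and MRPS genes after knockdown were -0.08 and -0.03 in NALM-6, -0.06 and 0.00 in RS4;11, and 0.22 and 0.18 in BV-173. With palbociclib they were -0.29 and -0.30 in NALM-6, -0.07 and -0.10 in RS4;11, and 0.15 and 0.13 in BV-173. The difference, MRPL less MRPS, thus ran from -0.06 to 0.03 and was in each comparison smaller than the interquartile range of the members. Once proteins were placed by structure, the difference in NALM-6 with palbociclib was -0.10 in place of 0.01. Proteins were also split by whether they have a bacterial counterpart. With palbociclib in NALM-6, the 30 large subunit proteins with a bacterial counterpart lay at -0.28 and the 21 found only in mitochondria at -0.31, while the 16 and 10 corresponding small subunit proteins lay at -0.12 and -0.38. A gap of this size in the small subunit was not seen elsewhere. With palbociclib these small subunit sets lay at -0.14 and -0.12 in RS4;11 and at 0.18 and 0.05 in BV-173. After knockdown they lay at 0.01 and -0.09 in NALM-6, -0.06 and -0.03 in RS4;11, and 0.16 and 0.16 in BV-173.

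Among large subunit genes, *MRPL16* (gene ID 54948, chr11:59806140-59810778, GRCh38) stood apart. It encodes the counterpart of bacterial L16, which lies near the peptidyl transferase centre. Its level was 1452 with scrambled and 527 with *CCND3* shRNA in NALM-6, 623 and 287 in RS4;11, and 1315 and 1042 in BV-173. The log2 ratios were -1.46, -1.12 and -0.34, with a mean of -0.97 (SD 0.58, 3 lines). In NALM-6, 0.480% of listed genes had a lower ratio, in RS4;11 3.12% and in BV-173 14.5%. With palbociclib its levels went from 1473 to 1303 in NALM-6, from 855 to 779 in RS4;11 and from 1134 to 1209 in BV-173, with a mean log2 ratio of -0.07 (SD 0.15, 3 lines). The levels were thus lower in all 3 knockdown groups, most in NALM-6, and close to DMSO in all 3 palbociclib groups. *MRPL16* was the only member past 1.5-fold lower in at least 2 lines after knockdown. Among the 13307 genes listed in 6 comparisons, 857 were so, beside 1 of the 78 members, which is a smaller share. Of the 857, 17 were also below a ratio of 25% over 1, and above its inverse, in each palbociclib comparison, with *MRPL16* as the 1 member. *MRPL16* has no pseudogene in the list of gene names used. In GENCODE 44 it shares no exon bases with another listed protein-coding gene.

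**Figure D2:**
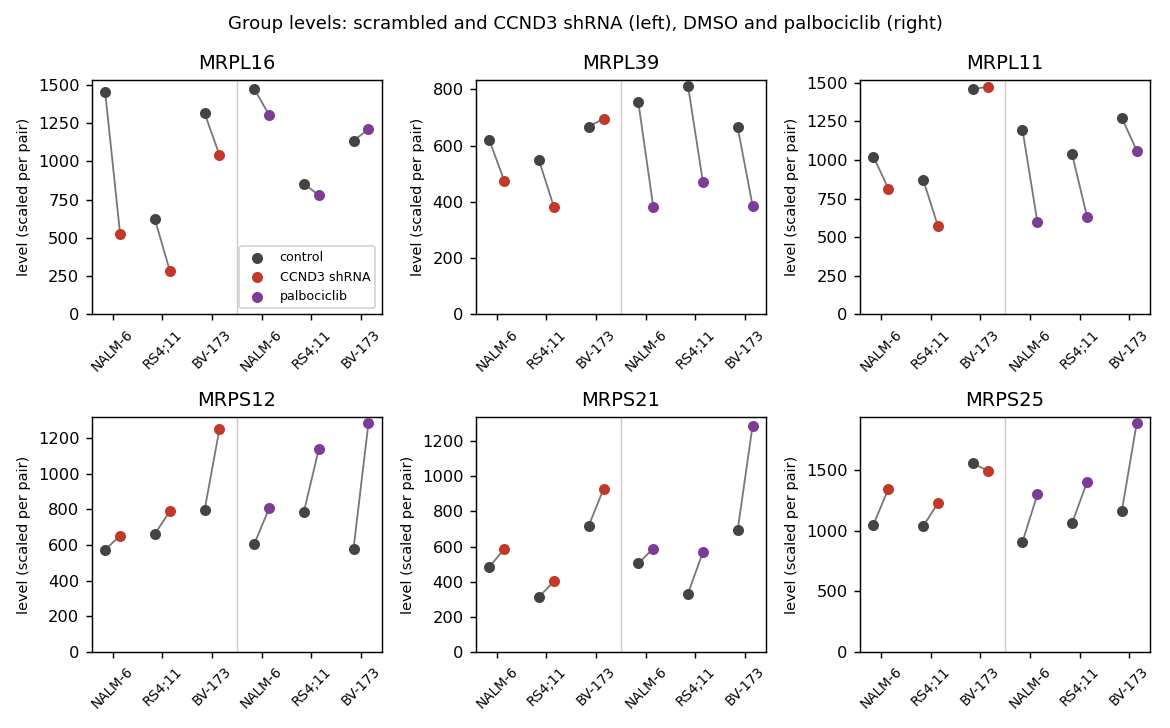
Level of 6 members in each group (vertical axis, authors' level scaled within each pair, from 0), with the control (dark) joined to *CCND3* shRNA (red, left) or palbociclib (purple, right) of the same line. *MRPL16* is at 1452 and 527 in NALM-6 and at 623 and 287 in RS4;11 with scrambled and *CCND3* shRNA, *MRPL39* is lower in all 3 palbociclib groups and *MRPS12* higher in all 6 treated groups.

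*MRPL39* had the lowest palbociclib mean. Its product is found only in mitochondrial ribosomes. The level went from 754 with DMSO to 383 with palbociclib in NALM-6, from 813 to 471 in RS4;11 and from 665 to 387 in BV-173. The log2 ratios of -0.98, -0.79 and -0.78 were alike in the 3 lines (mean -0.85, SD 0.11), and *MRPL39* was the only member past 1.5-fold lower with palbociclib in each line. The share of all genes past 1.5-fold lower in all 3 lines was not counted, so this cannot be called particular to *MRPL39*. After knockdown the levels went from 619 to 476, from 548 to 382 and from 667 to 696 in the same order of lines, with ratios of -0.38, -0.52 and 0.06.

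*MRPL11*, counterpart of the bacterial protein at the base of the stalk that binds translation factors, followed. Its palbociclib ratios were -0.999 in NALM-6 (1196 to 599), -0.71 in RS4;11 (1036 to 633) and -0.26 in BV-173 (1272 to 1061). Its knockdown ratios were -0.32, -0.62 and 0.02. *MRPL11* shares 119 exon bases with *PELI3* on the opposite strand, and whether counting used the strand is not given in the sources used here. The stalk gene *MRPL10* was above the scrambled level in each line after knockdown, at 0.20, 0.34 and 0.46, and lay at -0.59, -0.06 and 0.15 with palbociclib.

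*MRPL2*, counterpart of a core protein of the peptidyl transferase region, lay at -1.08, -0.52 and -0.06 with palbociclib, and at -0.09, -0.10 and 0.36 after knockdown. *MRPL9* lay at -0.86, -0.49 and -0.25 with palbociclib. *MRPL48*, which encodes a mitochondrion-specific protein, was below the control in all 6 comparisons (the share of all genes was not counted). Its knockdown ratios were -0.62, -0.40 and -0.02 and its palbociclib ratios -0.88, -0.43 and -0.06. *MRPL58*, which encodes a peptidyl-tRNA hydrolase built into the large subunit, lay at -0.63, -0.21 and 0.15 after knockdown and at -0.85, -0.38 and -0.26 with palbociclib. With palbociclib, the NALM-6 value was the lowest of the 3 lines in each of these 4 genes. *MRPL2* shares exon bases with *KLC4* and *MRPL9* with *OAZ3*, both on the opposite strand.

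*MRPL1*, counterpart of the mobile L1 stalk protein, had the opposite order. It was below the scrambled level after knockdown in each line, at -0.06, -0.06 and -0.13, and above DMSO with palbociclib in each line, at 0.67 (231 to 368), 0.50 (341 to 482) and 0.07 (738 to 776). *MRPL4*, which lines the exit tunnel, lay at 0.23, 0.21 and 0.49 after knockdown and at -0.08, 0.07 and 0.63 with palbociclib. *MRPL41* varied widely between lines, with knockdown ratios of -0.40, 0.16 and 0.26 and palbociclib ratios of 0.00, 0.21 and 0.76. *MRPL18*, of the central protuberance, lay at -0.71, -0.39 and 0.22 with palbociclib.

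Among members with a mean level of at least 100 in each comparison, 5 had the highest palbociclib means over the lines. They were *MRPS12*, *MRPS21*, *MRPS25*, *MRPS33* and *MRPL1*. *MRPS17*, below that level in at least 1 comparison, had a higher mean than *MRPL1*. *MRPS12* (gene ID 6183, chr19:38930944-38933168) encodes the counterpart of S12, a protein of the decoding centre. Its level went from 573 to 651 in NALM-6, from 660 to 788 in RS4;11 and from 794 to 1248 in BV-173 after knockdown. With palbociclib it went from 604 to 804, from 785 to 1136 and from 579 to 1281. It was above its control in all 6 comparisons, and the share of all genes above in all 6 was not counted. The mean over the 3 lines was 0.36 (SD 0.25) after knockdown and 0.70 (SD 0.39) with palbociclib, and BV-173 was highest for both treatments. In BV-173, 2.34% of genes had a higher ratio after knockdown and 3.45% with palbociclib.

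*MRPS21*, counterpart of bacterial S21, was above its control in all 6 comparisons too, again without a count for all genes. Knockdown ratios were 0.27, 0.36 and 0.37 (485 to 585, 313 to 401 and 718 to 929), and palbociclib ratios were 0.22, 0.77 and 0.89 (505 to 588, 332 to 568 and 695 to 1289). It has 8 named pseudogenes, so reads of near-identical copies may enter its level. *MRPS25* lay at 0.52, 0.40 and 0.70 with palbociclib, and at 0.36, 0.25 and -0.06 after knockdown, and shares 7157 exon bases with *NR2C2* on the opposite strand. *MRPS33* lay at 0.04, 0.34 and 0.87 with palbociclib, at levels of 217 to 439, and *MRPS17*, counterpart of bacterial S17, at 0.13, 0.57 and 0.74, at levels of 103 to 370.

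Small subunit genes were also among the lowest with palbociclib. *MRPS18B* went from 1955 to 925 in NALM-6, from 2022 to 1425 in RS4;11 and from 2612 to 2316 in BV-173, or -1.08, -0.50 and -0.17. After knockdown it lay at -0.29, -0.13 and 0.31. Its paralog *MRPS18C* lay at -0.65, -0.09 and -0.58 with palbociclib, and *MRPS18A* at -0.31, 0.04 and 0.20. After knockdown *MRPS18C* lay at -0.37, -0.42 and 0.07 and *MRPS18A* at 0.30, 0.05 and 0.34. The 3 paralogs thus did not share 1 pattern. *MRPS18C* shares 1956 exon bases with *ABRAXAS1* and *MRPS18A* 705 with *RSPH9*, both on the opposite strand. *MRPS18C*, *MRPS18B* and *MRPS18A* have 3, 2 and 1 named pseudogenes, so reads of other genes or copies may enter these levels. *MRPS28* lay at -0.69 (219 to 135), -0.63 (506 to 328) and 0.22 (508 to 591) with palbociclib. *MRPS30* was nearly the same in each line after knockdown, at 0.29, 0.30 and 0.32, and lay at -0.30, -0.04 and 0.07 with palbociclib. *MRPS36*, which is no ribosome subunit, lay at 0.09, 0.09 and 0.21 after knockdown.

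**Figure D3:**
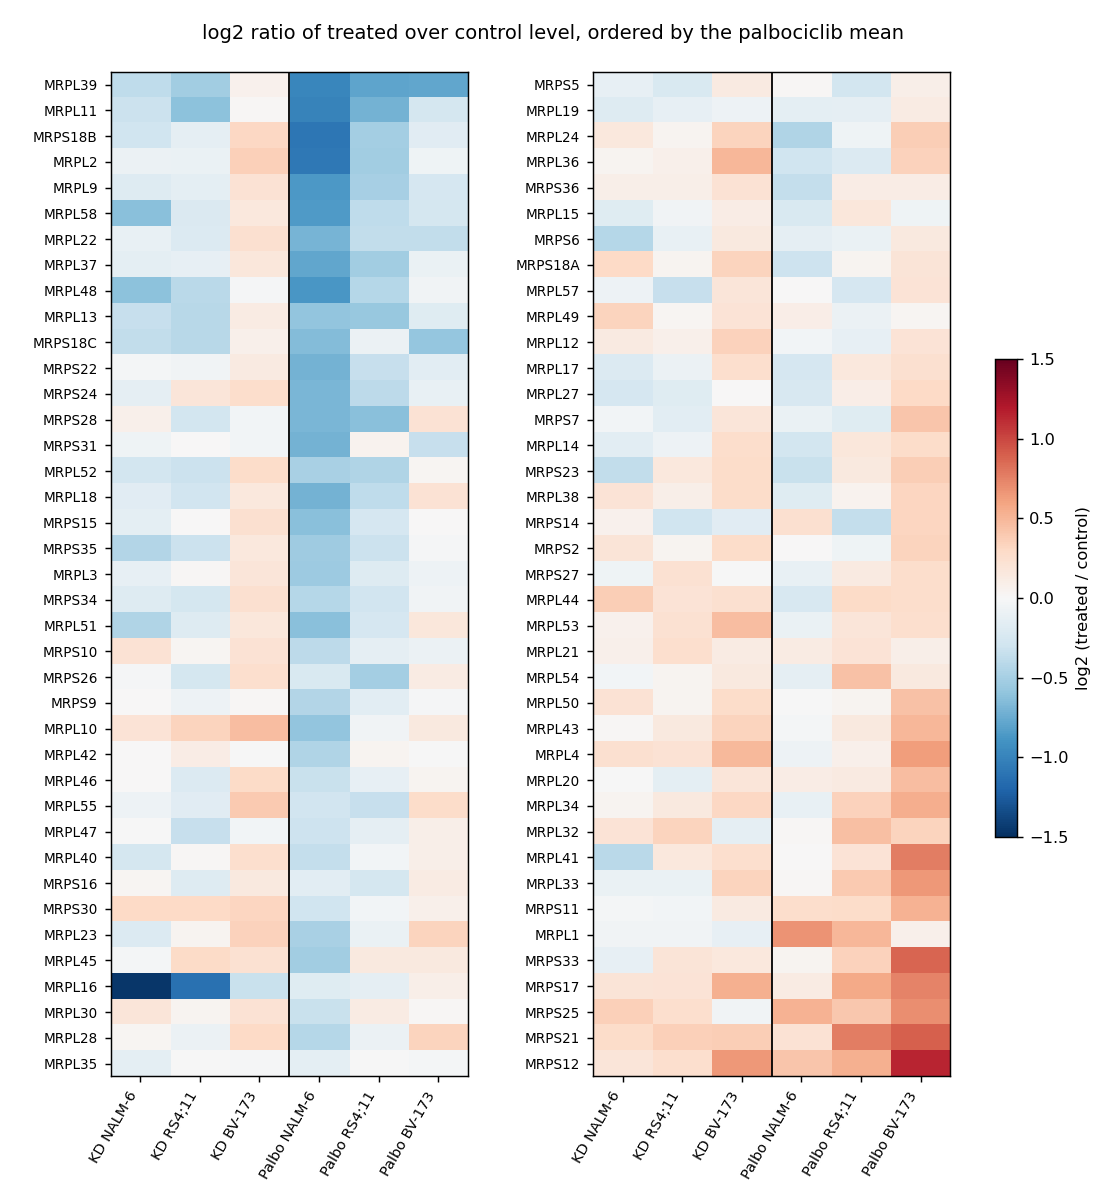
Log2 ratio of treated over control level (colour, blue lower and red higher) for all 78 members in the 3 knockdown (KD) and 3 palbociclib (Palbo) comparisons, ordered by the palbociclib mean from *MRPL39* (-0.85, top left) to *MRPS12* (0.70, bottom right). The NALM-6 palbociclib column is blue for most members and the BV-173 columns are mostly red, and *MRPL16* is dark in the NALM-6 and RS4;11 knockdown columns.

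Over the 3 lines, the median of the members' mean log2 ratios was 0.02 after knockdown and -0.06 with palbociclib, beside 0.00 and 0.04 for all genes. After knockdown, 22 members were above the control in all 3 lines and 6 below in all 3, beside 22.5% and 23.3% of all genes. With palbociclib, 12 were above and 19 below in all 3 lines, beside 28.3% and 26.9% of all genes. The 6 below after knockdown were *MRPL1*, *MRPL16*, *MRPL19*, *MRPL35*, *MRPL47* and *MRPL48*. The sign of both medians rested on 1 line. Without BV-173 the knockdown median was -0.07, and without NALM-6 the palbociclib median was 0.02.

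Knockdown and palbociclib were set against each other within each line, with separate controls. In NALM-6, the knockdown ratio was above the palbociclib ratio in 61 of 78 members, with a median difference of 0.22. In RS4;11 it was above in 49 and in BV-173 in 44, with median differences of 0.04 and 0.02. The same share of all genes was not counted, so these counts cannot be called particular to the members. Across members, the means of both treatments correlated with Pearson's r of 0.48 (n = 78 genes), and with 0.60 when *MRPL16* was left out (n = 77), a choice made after its values were seen. Spearman's rho hardly changed, at 0.53 with and 0.54 without *MRPL16*. The same correlation over all genes was not computed. These are descriptions across genes, which share libraries and are not independent replicates. *MRPL16* had the largest gap, its knockdown mean being 0.90 lower on the log2 scale, so that knockdown less palbociclib was -0.90. *MRPL2*, *MRPL39* and *MRPS18B* lay on the other side, at 0.61, 0.57 and 0.55.

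**Figure D4:**
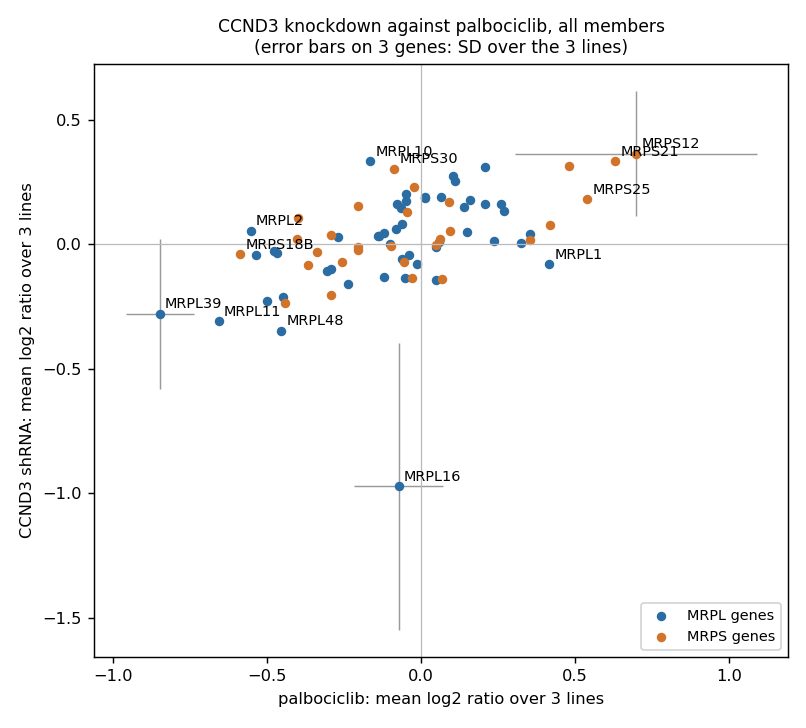
Mean log2 ratio over the 3 lines with palbociclib (horizontal) and after *CCND3* shRNA (vertical) for 49 MRPL (blue) and 29 MRPS genes (orange), with the SD over the lines on 3 genes. *MRPL16* lies far below the others at -0.97 with a palbociclib mean of -0.07, *MRPL39* lies farthest left at -0.85 and *MRPS12* farthest right at 0.70.

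Levels of different members were compared per length, as the level divided by the gene length and scaled to 1000000 over all genes of the group, over the 6 control groups. This puts separately scaled comparisons on 1 scale and cannot remove other differences between them. On this scale members ran from 22.2 (*MRPL22*) to 250.2 (*MRPL37*), an 11.3-fold range, with a median of 74.3. The median was 77.2 for MRPL and 67.9 for MRPS genes. The highest after *MRPL37* were *MRPL51* (205), *MRPL4* (196) and *MRPS34* (192), and the lowest after *MRPL22* were *MRPS36* (23.6), *MRPL19* (26.1) and *MRPS14* (26.7). All genes listed in 6 comparisons had a median of 19.1, respiratory chain and ATP synthase genes of 172.6 and cytosolic ribosomal proteins of 3076.

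The summed level of the 78 members, per 1000000 of all levels of the group and so not corrected for length, was 4058 with scrambled and 3973 with *CCND3* shRNA in NALM-6. It was 3747 and 3592 in RS4;11, and 4957 and 5285 in BV-173. With DMSO and palbociclib it was 4381 and 3849 in NALM-6, 4421 and 4107 in RS4;11, and 4464 and 4698 in BV-173. Treated less control, the sum differed by -2.11%, -4.15% and 6.62% after knockdown, and by -12.1%, -7.11% and 5.25% with palbociclib. The 2 kinds of control also differed. The scrambled less the DMSO sum was -7.37%, -15.2% and 11.0% of the DMSO sum. The MRPL sum was 1.57 to 1.74 times the MRPS sum in every group. In bulk RNA, fewer cells and less RNA per cell cannot be told apart.

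**Figure D5:**
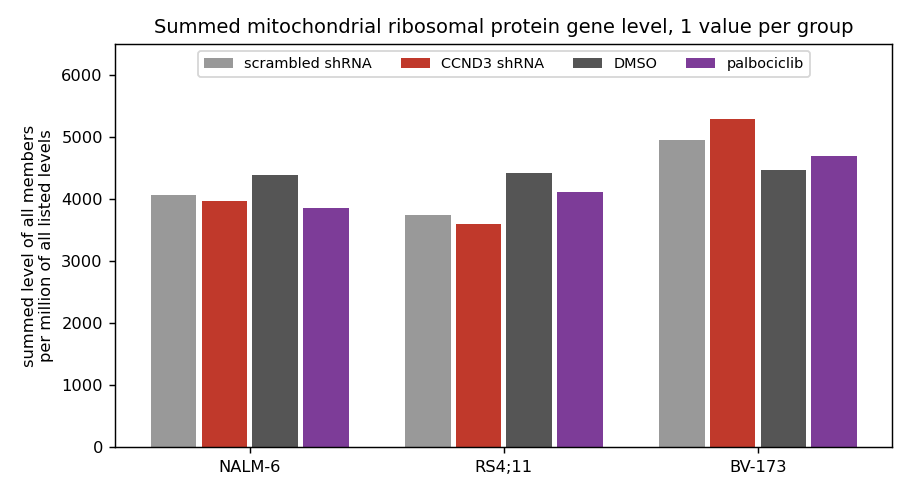
Summed level of the 78 members per 1000000 of all listed levels (vertical axis, from 0), 1 bar per group, by line. Treated bars are below their own control in NALM-6 and RS4;11 and above it in BV-173, and the scrambled bar is -7.37%, -15.2% and 11.0% off the DMSO bar of its line.

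Other genes of mitochondrial gene expression, from lists chosen by function, were set beside the members, whose medians were -0.05, -0.05 and 0.21 after knockdown and -0.29, -0.09 and 0.14 with palbociclib. The 26 genes of mitoribosome assembly had medians of 0.05, -0.04 and 0.18 after knockdown and of -0.09, -0.00 and 0.10 with palbociclib, and none was past 1.5-fold after knockdown. With palbociclib 3 of the 26 were past 1.5-fold lower in NALM-6 beside 14.9% of all genes, 1 was higher and 1 lower in RS4;11 beside 16.7% and 15%, and 2 were higher in BV-173 beside 13.6%. Their means over the lines ran from -0.33 (*MTERF3*) to 0.37 (*NOA1*, a GTPase) after knockdown and from -0.49 (*METTL17*) to 0.60 (*YBEY*) with palbociclib. The 16 listed translation factors and mRNA-binding proteins had medians of 0.05, 0.05 and 0.12, and of -0.10, -0.03 and 0.13. The elongation factor gene *TUFM* was highest after knockdown (mean 0.33) and *C12orf65*, a release factor gene, lowest (-0.26), and with palbociclib the initiation factor gene *MTIF2* was lowest (-0.43) and the mRNA-binding *SLIRP* highest (0.35). The 5 listed mitoribosomal proteins with other symbols had 0.02, 0.01 and 0.24, and -0.14, -0.17 and 0.27, with none past 1.5-fold. Among these, *DAP3*, a small subunit protein that binds GTP, lay at 0.29, 0.32 and 0.25 after knockdown. Their means ran from -0.09 (*CHCHD1*) to 0.29 (*DAP3*) after knockdown and from -0.12 (*GADD45GIP1*) to 0.19 (*AURKAIP1*) with palbociclib. Genes of mitochondrial transcription and the nucleoid had -0.01, 0.02 and 0.13, and -0.11, 0.01 and 0.24. Here *POLRMT*, the mitochondrial RNA polymerase, had the highest knockdown mean (0.24) and the elongation factor gene *TEFM* the lowest (-0.24), and with palbociclib *TFAM*, which packs mitochondrial DNA, had the lowest mean (-0.39) and the helicase gene *TWNK* the highest (0.34). Nuclear-encoded respiratory chain and ATP synthase genes (78), which the mitoribosome's products join, had -0.04, -0.05 and 0.28 after knockdown and -0.17, 0.08 and 0.37 with palbociclib. Their means ran from -0.38 (*NDUFA6*) to 0.48 (*NDUFA10*) and from -0.75 (*COX8A*) to 0.73 (*NDUFB2*). No gene encoded in mitochondrial DNA was listed.

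Cytosolic ribosomal protein genes (78) ran higher than their mitochondrial counterparts. Their median was 0.32, 0.40 and 0.53 after knockdown, with 78, 78 and 77 above the control, and 0.03, 0.55 and 0.56 with palbociclib. *RPL12* had their highest knockdown mean (0.59), and with palbociclib *RPS12* had the highest (0.70) and *RPSA* the lowest (-0.08). The 9 activators of nuclear genes for mitochondria had medians of 0.03, -0.21 and -0.07 after knockdown and of -0.15, -0.34 and -0.31 with palbociclib, and their values differed widely. *NRF1* had the lowest mean for both treatments, at -0.50, -0.86 and -0.29 after knockdown and -1.46, -1.63 and -0.96 with palbociclib. *ESRRA*, a nuclear receptor gene, was above the control in all 6 comparisons, at 0.27, 0.49 and 0.21, and at 0.36, 0.72 and 0.30, the highest palbociclib mean of the list. *PPARGC1A*, a coactivator gene, had the highest knockdown mean (0.79) at a low level, under 10 in every group. *GABPA*, the ETS factor of this list, lay at -0.04, -0.21 and -0.35, and at -0.17, -0.34 and -0.54. The gene of its partner, *GABPB1*, lay at -0.11, -0.76 and -0.31, and at -0.28, -1.02 and -1.003. *YY1* lay at 0.04, -0.23 and -0.07, and at -0.24, -0.53 and -0.39. *PPRC1* lay at -0.01, -0.36 and 0.16, and at -0.15, -0.64 and 0.06, and *PPARGC1B*, a coactivator gene, at 0.03, -0.20 and -0.36, and at 0.39, -0.17 and 0.17. *MYC* lay at 0.10, 0.01 and 0.60, and at 0.06, 0.28 and 0.42. BV-173 had the highest value of the lines for both treatments in *MYC*, *NRF1* and *PPRC1*, and the lowest in *GABPA*, *ESRRA* and *PPARGC1A*. A link of these genes to the members was not tested.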

How the data were processed

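The 34 RNA-seq samples fell into 12 groups, formed by line and treatment as labelled. Per the labels and the submitters' processing notes, libraries were made with oligo(dT) enrichment, and the authors aligned reads to hg38 (Bowtie2), took gene levels from RSEM and ran DESeq2 on each pair. Versions and strandedness are not given in the sources used here. The deposited tables hold, per comparison, a signal for each group (replicates combined, scaled within the pair by the authors), the gene length, and the authors' log2 fold changes, p-values, adjusted p-values and direction calls, which were not used. The design foresaw this case, so no test was run, and the depth per sample and the precision are unknown.

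Log2 ratios of the 2 group signals were computed without a pseudocount or level filter, per comparison. Counts past 1.5-fold were set beside those of all listed genes. Sums were scaled to 1000000 within each group. Members and gene lists were chosen with earlier results of these data known. The lists came from general knowledge. The named members were the 5 highest and 5 lowest per treatment over the lines (mean level of at least 100), those past 1.5-fold in at least 2 lines, the 4 highest and 4 lowest per length, the 4 with the largest difference between treatments, the 3 with the widest range over lines per treatment, the *MRPS18* paralogs and *MRPS30*, and the highest and lowest genes of other lists per treatment. Those of the marker lists and 1 cytosolic ribosomal protein gene are not reported here. Other members, named where a count is spelled out, and the other activators were chosen after their values were seen.

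Positions are from RefSeq (GRCh38.p14), and overlaps from GENCODE 44, where 24 members share exon bases with another listed protein-coding gene. Pseudogenes were counted in a list of gene names, as symbols made of the member's symbol, a P and a number. Python 3.11.15, numpy 2.4.6, pandas 2.3.3 and matplotlib 3.10.9 were used, and the steps were tested on simulated data. Alternatives were other folds, centring, level filters, a pseudocount of 1, means, subunits by structure and leaving out each line.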

Additional observations from a re-analysis of the deposited data

Results flagged for a closer look

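With palbociclib, the median log2 ratio of the 78 members less that of all genes was below 0 in NALM-6 and RS4;11 and above 0 in BV-173. The gap between BV-173 and NALM-6 was 0.46 and that between BV-173 and RS4;11 was 0.20. These differences stood out by their opposite directions and were not tested, since the tables hold 1 value per group.

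Past a ratio of 25% over the control in BV-173 and past the same factor below it in NALM-6 were 4 members with palbociclib, a difference that was not tested either. This is 5.13% of members beside 2.29% of the 13307 genes listed in all 6 comparisons. *MRPL23* went from 886 to 634 in NALM-6 and from 849 to 1073 in BV-173, a gap of 0.82 on the log2 scale. *MRPL24* went from 726 to 529 and from 908 to 1177, a gap of 0.83. *MRPL28* went from 1830 to 1363 and from 1143 to 1436, a gap of 0.75. *MRPS23* went from 856 to 678 and from 940 to 1217, a gap of 0.71.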

How the results depend on the processing

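Of 204 alternative values for 48 results, 25 moved and 6 reversed. The others kept their direction and shifted by less than the spread over lines or, for counts, by at most 1.5 times, though small medians could shift by a larger factor (the knockdown median over lines was 0.0913 without NALM-6 and 0.0530 without RS4;11). At a ratio 25% over 1 and its inverse, counts higher and lower after knockdown were 3 and 12 in NALM-6, 3 and 9 in RS4;11, and 15 and 1 in BV-173. Shares of all listed genes were 18.8% and 17.96%, 20.6% and 20.2%, and 13.7% and 15.4%. With palbociclib the counts were 3 and 35 (32.8% and 25.4% of all genes), 10 and 19 (28.5% and 26.1%), and 21 and 4 (25.9% and 22.7%). At a fold of 2, 1 member was lower in NALM-6 (3.08% of all genes) and 1 in RS4;11 (3.91%) after knockdown, and 0 were higher in BV-173 (0.447%). Palbociclib gave 0 and 2 in NALM-6 (11.4% and 6.87%), 0 and 0 in RS4;11 (7.13% and 7.07%), and 1 and 0 in BV-173 (4.76% and 4.98%). With ratios centred on all genes, 2 members were past 1.5-fold lower with palbociclib in BV-173. By structure, the median of large less small subunit genes was -0.0019 after knockdown in RS4;11. With palbociclib it reversed to -0.102 in NALM-6, and it was 0.0869 in RS4;11 and 0.0114 in BV-173. With means in place of medians, the palbociclib differences reversed to -0.0863, -0.0206 and -0.0667 in the same order. The member median over the lines reversed to -0.0746 for knockdown without BV-173 and to 0.0247 for palbociclib without NALM-6. The cause of these shifts was not tested. No paired analysis was possible because the tables hold 1 value per group with no replicate numbers, and for the same reason no replicate could be left out. Depth limits could not be assessed.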

Other observations

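In GENCODE 44, 27 members had a listed protein-coding neighbour on the opposite strand whose start lay within 1000 bases of their own. In some pairs the values of the neighbour lay far from those of the member. The pairs named below were picked after their values were seen, and how many of the 27 ran alike was not counted. *NCAPD2*, a condensin subunit next to *MRPL51*, lay at -2.51, -2.33 and -1.50 with palbociclib (NALM-6 first, then RS4;11 and BV-173), where *MRPL51* lay at -0.63, -0.25 and 0.17. *SKA3*, a kinetochore gene next to *MRPL57*, lay at -2.65, -6.19 and -2.01, where *MRPL57* lay at 0.01, -0.26 and 0.20. *EME2*, a nuclease subunit gene next to *MRPS34*, lay at 2.61, 1.85 and 1.54, where *MRPS34* lay at -0.43, -0.28 and -0.06. *EME2* shares 341 exon bases with *MRPS34*, and *NCAPD2* 383 with *MRPL51*, each on the opposite strand. Whether counting used the strand is not given in the sources used here, so reads of either gene may enter the level of the other. *SARS2*, the mitochondrial seryl-tRNA synthetase gene next to *MRPS12*, lay at -0.61, -0.02 and -0.07, where *MRPS12* lay at 0.41, 0.53 and 1.15. *MRPL46* and *MRPS11* are neighbours of each other, and lay at -0.33, -0.12 and 0.04, and at 0.27, 0.27 and 0.52. These are values without a test.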
